A study of Rattus norvegicus with 46 samples.

Results

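Troponin C of fast skeletal muscle, Tnnc2, was measured in rat frontal lobe together with 4 other transcripts that are abundant in fast muscle fibres: Tnni2, Tnnt3, Ckm and Acta1. Members were the probe sets whose single symbol in the platform annotation is 1 of these 5 names, which gave 5 probe sets, 1 for each gene, out of 15923 on the array. The set was selected on the measured level of Tnnc2, which was low at 50 mg/kg of chlorpyrifos, so every value of that dose against vehicle is given below as a description, with no test. The question was whether Tnnc2 varies among brain pieces with the other muscle-named genes or with genes of cortical neurons.

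Chlorpyrifos is an organophosphate insecticide whose oxon metabolite inhibits acetylcholinesterase. Male Fisher 344 rats aged 11 to 12 weeks received 1 dose of chlorpyrifos or vehicle, and a piece of frontal lobe of about 30 mg was taken 96 hours later for an array. The groups by dose, low to high, were vehicle (3 arrays), 1 mg/kg (3), 10 mg/kg (5) and 50 mg/kg (3) in experiment A. Experiment B held vehicle (4 arrays), 0.5 mg/kg (3), 5 mg/kg (1) and 30 mg/kg (3), and experiment C held vehicle (3 arrays), 1 mg/kg (4), 5 mg/kg (3) and 10 mg/kg (4). All animals shared strain, sex and time of collection, and the labels number the animals within each dose group, so the spread is taken as that among animals. For 3 arrays of experiment C (vehicle animal 1 and 10 mg/kg animals 2 and 3) the titles add that they are a first repeat, whose meaning the labels do not give. These are 39 of 46 deposited arrays; the other 7 correlated with the 39 at -0.0068 to 0.0025, while the 39 correlated with each other at 0.935 to 0.979, and the 7 were left out. They are 1 array each of vehicle, 1 mg/kg and 50 mg/kg of A, 0.5 mg/kg of B and 5 mg/kg of C, and both arrays of 30 mg/kg of C, so that group is not analysed here.

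The troponin complex sits on the thin filament of striated muscle and switches contraction on when calcium rises. Troponin C binds calcium, troponin I inhibits the contact of actin with myosin, and troponin T ties the complex to tropomyosin. Tnnc2, Tnni2 and Tnnt3 encode the fast skeletal forms of these subunits. Ckm encodes the muscle creatine kinase, which regenerates ATP from phosphocreatine, and Acta1 encodes the actin of skeletal muscle thin filaments. Troponin C belongs to the EF-hand family of calcium sensors, which also holds calmodulin and several neuronal proteins. In a piece of brain, fewer cells with a transcript and less transcript per cell cannot be told apart.

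The promoters of Tnnc2, Ckm and Acta1 are shown because the comparison below asks whether these genes vary together, and shared muscle motifs are one property that the values do not use. The sequences are from RefSeq on the build GRCr8, run from 250 bases before to 50 bases after the annotated start, and read 5′ to 3′ on the gene's strand. Capitals mark matches to 4 motifs searched on both strands, the E-box CANNTG bound by the MyoD family among others, the TATA motif TATAAA, the MEF2 motif and the CArG box of serum response factor.
Tnnc2 (chr3:173935290-173935589, minus strand): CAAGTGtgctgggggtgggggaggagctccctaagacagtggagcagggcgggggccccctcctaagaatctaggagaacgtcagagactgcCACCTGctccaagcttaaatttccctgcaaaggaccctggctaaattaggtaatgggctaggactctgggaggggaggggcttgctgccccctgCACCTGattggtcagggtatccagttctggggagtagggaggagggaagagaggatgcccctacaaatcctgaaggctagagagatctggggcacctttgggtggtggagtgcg
Ckm (chr1:88189211-88189510, plus strand): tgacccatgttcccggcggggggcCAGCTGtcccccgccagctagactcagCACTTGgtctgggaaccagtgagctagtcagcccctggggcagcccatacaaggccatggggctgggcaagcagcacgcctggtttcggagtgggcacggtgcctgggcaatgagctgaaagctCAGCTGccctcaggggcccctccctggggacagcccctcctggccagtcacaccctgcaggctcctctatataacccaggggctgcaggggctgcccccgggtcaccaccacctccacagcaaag
Acta1 (chr19:68784145-68784444, minus strand): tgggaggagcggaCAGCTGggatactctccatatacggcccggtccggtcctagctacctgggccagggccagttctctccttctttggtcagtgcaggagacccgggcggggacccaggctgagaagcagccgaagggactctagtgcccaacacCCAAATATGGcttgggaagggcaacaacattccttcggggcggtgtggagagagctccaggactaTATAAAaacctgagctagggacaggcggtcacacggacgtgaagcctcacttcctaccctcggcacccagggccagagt

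Tnnc2 and Ckm each held 3 E-boxes and no match to the other 3 motifs in this window. The TATA search took TATAAA alone, so no match does not show that a promoter lacks a TATA element of another form. Acta1 held 1 E-box, 1 CArG box and 1 TATA motif, and Tnni2 held 1 E-box and, on the opposite strand, 1 TATA motif. Of all 33469 promoters of the same length, 72.1% held an E-box, 14.2% the TATA motif, 3.29% the MEF2 motif and 1.64% a CArG box. An E-box is therefore common to the 4 promoters and to most others, while the CArG box of Acta1 is the only match to either of the rarer motifs. No promoter of Tnnt3 was used here.

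All levels below are log2 of normalised probe set intensity, in which 1 unit is a doubling of brightness, and they are compared between arrays within a probe set and not between probe sets. Probe sets with a mean under 6.90, the 30th percentile, were kept out of the main fit. Tnnc2, Ckm and Acta1 lay above that limit, with means over 39 arrays of 8.43, 7.53 and 8.72. Tnni2 (6.23) and Tnnt3 (5.59) lay under it, so their differences come from a fit of all 15866 probe sets.

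Tnnc2, the calcium-binding subunit, read 8.85, 8.83 and 8.51 in vehicle rats of experiment A, and 8.49, 6.91 and 8.15 after 1 mg/kg. After 10 mg/kg it read 8.80, 8.74, 8.53, 8.77 and 8.86, and after 50 mg/kg 6.99, 6.94 and 6.52. All 3 arrays at 50 mg/kg and all 3 at 1 mg/kg lay under every vehicle array, while the 5 arrays at 10 mg/kg overlapped them. In experiment B, Tnnc2 was 8.99, 8.42, 8.64 and 9.05 in vehicle, 9.32, 8.90 and 8.87 at 0.5 mg/kg, 7.35 in the single array at 5 mg/kg and 8.91, 7.82 and 8.86 at 30 mg/kg. In experiment C the vehicle rats read 8.61, 8.66 and 8.45, those given 1 mg/kg 9.31, 8.21, 8.45 and 8.23, those given 5 mg/kg 9.09, 9.09 and 8.04, and those given 10 mg/kg 8.98, 7.46, 8.80 and 8.37. Every dose of experiment C overlapped its vehicle arrays, and so did 0.5 and 30 mg/kg in experiment B.

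As deposited, before any scaling here, the Tnnc2 intensities were 132.9, 124.7 and 95.4 after 50 mg/kg, against 457.6, 447.0 and 373.7 in vehicle of experiment A, and these groups did not overlap either.

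The 10 vehicle arrays of Tnnc2 lay between 8.42 and 9.05, with a mean of 8.70 ± 0.22 (SD, n = 10). Of the 39 arrays, 7 lay under 8, none of them vehicle: the 3 at 50 mg/kg and 4 at other doses. These 4 were animal 2 of the 1 mg/kg group of experiment A (6.91), the 5 mg/kg animal of experiment B (7.35), animal 2 at 10 mg/kg of experiment C (7.46, an array titled a first repeat) and animal 3 at 30 mg/kg of experiment B (7.82). The remaining 32 arrays spread between 8.04 and 9.32. A Tnnc2 under 8 was thus found in 1 animal each of 4 dose groups outside 50 mg/kg, of which the 5 mg/kg group of experiment B holds no other animal. The limit of 8 was a choice, and the counts of low arrays depend on it. Under 7.5 lay 6 arrays, the 3 at 50 mg/kg and 3 at other doses, none of them vehicle.

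**Figure D1:**
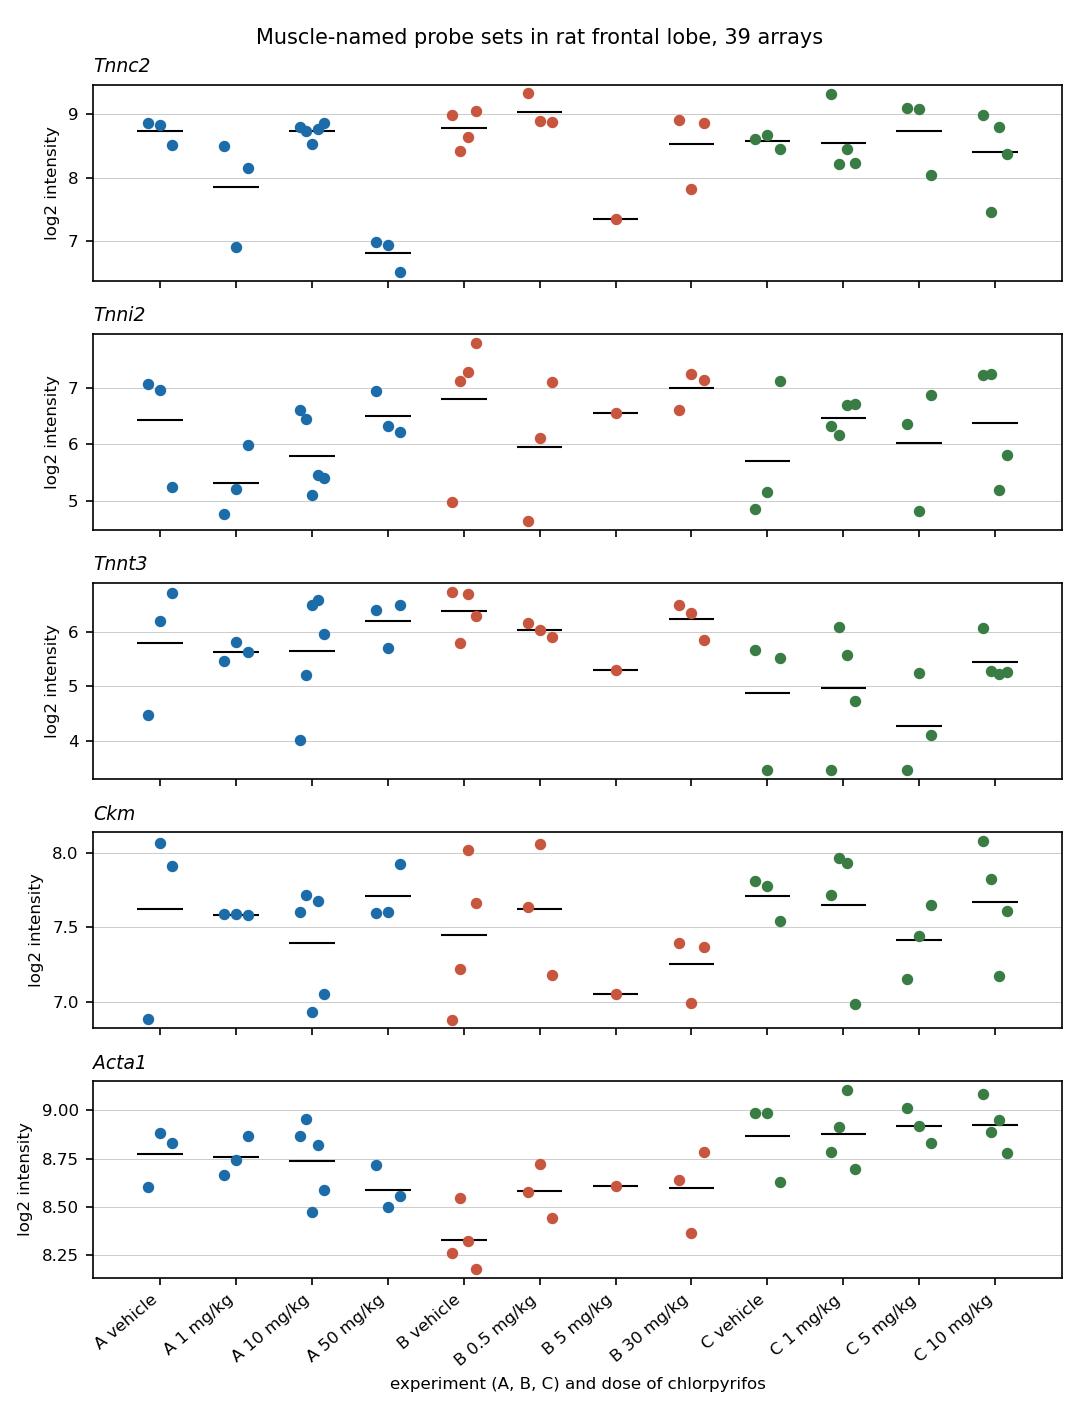
Log2 normalised intensity of the 5 probe sets in each of 39 arrays, by experiment and dose, 1 point per animal, with a bar at the group mean. Tnnc2 at 50 mg/kg, the dose that chose it, lies between 6.52 and 6.99, under all 10 vehicle arrays. The other 4 probe sets show no such group.

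Ordered by group mean, 50 mg/kg of experiment A was lowest at 6.82 ± 0.26 (SD, n = 3), and it lay under the next, the single 5 mg/kg array of experiment B at 7.35, by 0.53, more than the SD. Above them came 1 mg/kg of experiment A at 7.85 ± 0.83 (SD, n = 3) and 10 mg/kg of experiment C at 8.40 ± 0.68 (SD, n = 4). Higher still were 30 mg/kg of B (8.53), 1 mg/kg of C (8.55), vehicle of C (8.58), vehicle of A (8.73), 5 mg/kg of C (8.74), 10 mg/kg of A (8.74), vehicle of B (8.78) and 0.5 mg/kg of B (9.03). Of the 11 steps between neighbours in this order, only the first was larger than the larger SD of the pair. The 5 mg/kg group of B, with 1 array, has no SD, so its steps were set against the SD of its neighbour alone. The first step also rests on the dose that chose Tnnc2. The 50 mg/kg mean was 6.82 ± 0.26, against 8.73 ± 0.19 in vehicle of experiment A (SD, n = 3 each), a fitted difference of -1.92 ± 0.36 (SE), or 0.265-fold. The order of dose is not the order of level, since 10 mg/kg of experiment A (8.74) stood above 1 mg/kg of the same experiment (7.85).

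Tnni2, the inhibitory subunit, ran between 4.65 and 7.79 over the 39 arrays, with a mean of 6.49 ± 0.39 at 50 mg/kg, against 6.43 ± 1.02 in vehicle of experiment A (SD, n = 3 each). Its values at 50 mg/kg were 6.94, 6.32 and 6.22, against 7.07, 6.96 and 5.26 in vehicle, and the groups overlapped. Vehicle arrays alone spread over nearly the whole range of Tnni2, between 4.87 and 7.79 (SD 1.14, n = 10). Tnnt3, which anchors the complex to tropomyosin, ran between 3.46 and 6.73, and 3.46 is the lowest value that the floor on dim intensities allows. It reached the floor in 3 arrays, all in experiment C (the second vehicle rat and animal 1 of the 1 and 5 mg/kg groups), where values have no order. At 50 mg/kg Tnnt3 was 6.40, 5.71 and 6.49, against 4.48, 6.19 and 6.70 in vehicle, again overlapping.

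Ckm, the energy enzyme, ran between 6.88 and 8.08 over all arrays. It was 7.59, 7.61 and 7.93 at 50 mg/kg, against 6.88, 8.06 and 7.91 in vehicle of experiment A, and all 3 dosed arrays lay inside the vehicle range. Acta1, the actin of the thin filament, had the narrowest range of the 5, between 8.18 and 9.11 (SD 0.23, n = 39). It was 8.72, 8.50 and 8.56 at 50 mg/kg, against 8.60, 8.89 and 8.83 in vehicle of experiment A, and the groups overlapped. None of these 4 genes showed at 50 mg/kg the separation that Tnnc2 showed. Tnnc2 was chosen for its low level at this dose, so that contrast was set by the choice.

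The fitted differences at 50 mg/kg minus vehicle, with experiment as a term, were 0.62 ± 0.64 for Tnni2, 0.57 ± 0.56 for Tnnt3, 0.12 ± 0.26 for Ckm and -0.14 ± 0.12 for Acta1 (± SE). In limma 2 of 11106 probe sets passed an adjusted p of 0.05 at this dose, 0.018%, and nothing is read from the membership of Tnnc2 in that count because the same contrast chose it. Every array of the dose under every vehicle array was seen for 1 of 5 members (Tnnc2) and for 7.81% of all 15866 probe sets. At 1 mg/kg of experiment A the same held for 1 of 5 members, again Tnnc2, and for 5.71% of all probe sets. Both doses are set against the same 3 vehicle arrays, which also entered the choice of Tnnc2. No member lay above every vehicle array at these doses (0 of 5), against 7.36% of probe sets at 50 mg/kg and 4.51% at 1 mg/kg.

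In the other groups of over 1 dosed array, 0 of 5 members lay wholly above or wholly below the vehicle arrays of their experiment. The background above and below was 1.9% and 1.62% of all probe sets at 10 mg/kg of A, 4.05% and 3.49% at 0.5 mg/kg of B, and 5.11% and 4.27% at 30 mg/kg of B. In experiment C the 1 mg/kg group had 2.52% above and 1.95% below, the 5 mg/kg group 5.51% above and 5.11% below, and the 10 mg/kg group 2.85% above and 2.79% below. A count of 0 of 5 is near these shares.

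At the doses that did not choose the members, none of the 3 members in the main fit passed limma's test after Benjamini-Hochberg adjustment over 11106 probe sets. The background was 0% called at 0.5, 1, 5, 10 and 30 mg/kg, with 846, 282, 275, 298 and 1027 probe sets at an unadjusted p under 0.05. For Tnnc2 the differences were 0.46 ± 0.36 at 0.5 mg/kg, -0.55 ± 0.26 at 1 mg/kg, -0.39 ± 0.30 at 5 mg/kg, -0.20 ± 0.25 at 10 mg/kg and -0.04 ± 0.36 at 30 mg/kg (± SE). The lowest p among them, 0.0451 at 1 mg/kg, had an adjusted p of 1.00 in limma. The 95% interval of that difference ran between -1.09 and -0.01. It was -0.88 ± 0.29 within experiment A and -0.02 ± 0.36 within experiment C, and without the 6.91 array of experiment A it was -0.32. Without the arrays titled a first repeat, the 10 mg/kg difference was -0.06 ± 0.26. These fits share the vehicle arrays of experiment A, which also entered the choice of Tnnc2. The main fit also takes its error from all arrays, those of the dose that chose Tnnc2 among them. For Tnnc2 at 1 mg/kg, the p, the interval and the difference within experiment A therefore rest in part on the selecting values.

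At 5 mg/kg, Tnnc2 was -1.43 ± 0.37 against vehicle within experiment B, which has 1 array at that dose, and 0.16 ± 0.38 within experiment C. The test of this difference between experiments gave -1.59 ± 0.60 (B minus C), with an adjusted p of 0.388 in limma. Since B has 1 array at this dose, the error of that arm is borrowed from the other groups. That array was the dimmest of the 39, with a median intensity of 112 before normalisation, against 229 to 286 in the other 38, and the part of its dimness in the Tnnc2 value was not tested. Without it the 5 mg/kg difference was 0.06. At 1 mg/kg the difference between experiments A and C was -0.86 ± 0.48 (adjusted p = 0.742 in limma), and 0% of the 11106 probe sets were called for any of the 3 such differences. That difference at 1 mg/kg also uses the vehicle arrays of experiment A, which entered the choice of Tnnc2.

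**Figure D2:**
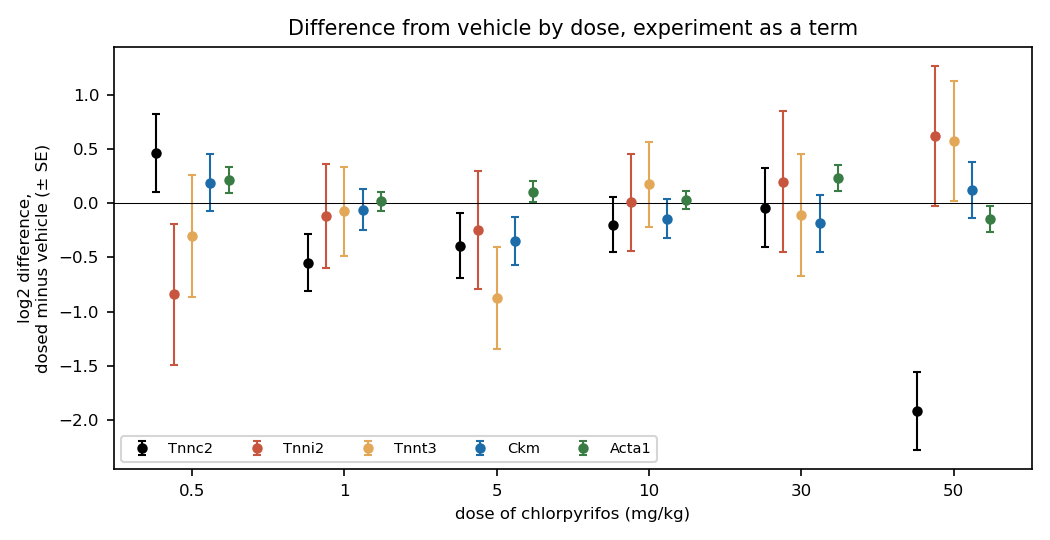
Fitted log2 difference, dosed minus vehicle, for each of the 5 probe sets at each dose, with bars of 1 SE and experiment as a term in the model. Tnnc2 at 50 mg/kg, the dose that chose it, is at -1.92 ± 0.36, and the bars of Tnni2 and Tnnt3 are wider than those of Ckm and Acta1.

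For the other members, Ckm differed from vehicle by between -0.35 ± 0.22 (5 mg/kg) and 0.19 ± 0.26 (0.5 mg/kg) over the 5 doses, and Acta1 by between 0.02 ± 0.09 (1 mg/kg) and 0.23 ± 0.12 (30 mg/kg, adjusted p = 0.554 in limma). Without the filter, Tnni2 ran between -0.84 ± 0.65 (0.5 mg/kg) and 0.20 ± 0.65 (30 mg/kg), and Tnnt3 between -0.87 ± 0.47 (5 mg/kg) and 0.17 ± 0.39 (10 mg/kg). None of these passed the adjusted threshold in that fit, where 0% of probe sets were called at 1, 5 and 10 mg/kg, 0.0126% at 0.5 mg/kg and 0.063% at 30 mg/kg. The SE was between 0.45 and 0.65 for Tnni2 at these doses, against 0.08 to 0.12 for Acta1, so the dim subunits bound a change less closely.

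Vehicle arrays of the 3 experiments were compared with each other to show how the genes vary with no dose. Acta1 was 8.33 ± 0.16 in experiment B (SD, n = 4), 8.87 ± 0.21 in experiment C and 8.77 ± 0.15 in experiment A (SD, n = 3 each). Its moderated F test in limma gave an adjusted p of 0.0468, among 733 of 11106 probe sets called (6.6%), and the call held in 1 of the 10 fits that each left out 1 vehicle array (adjusted p 0.0292 to 0.123). It was lost without the filter (0.0818) and without the arrays titled a first repeat (0.0984), which among vehicle arrays is the same fit as leaving out animal 1 of C. Tnnc2 (adjusted p = 0.648 in limma) and Ckm (0.809) were not called. For Tnnc2 this test includes the vehicle arrays of experiment A, which entered its choice. Vehicle means of Tnnc2 differed by -0.16 between C and A and by 0.04 between B and A.

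Whether Tnnc2 followed the other muscle genes was asked across the 39 arrays, after subtracting each experiment's mean from its arrays. Pearson's r with Tnnc2 was -0.22 for Tnni2, -0.18 for Tnnt3, -0.05 for Ckm and 0.21 for Acta1. Two-sided permutation p-values, with arrays permuted within experiment, were 0.169, 0.289, 0.769 and 0.210 in that order, and 0.385, 0.385, 0.769 and 0.385 after Benjamini-Hochberg adjustment over the 4 pairs. Spearman's rho was -0.14, -0.15, -0.02 and 0.21, with permutation p-values of 0.400, 0.362, 0.894 and 0.210. No relation of Tnnc2 with another member passed. These tests include the arrays of the dose that chose Tnnc2, so their p-values rest in part on the selecting values. Without the arrays of that dose, the permutation p-values for Pearson's r were 0.413, 0.619, 0.710 and 0.749 over 36 arrays, in the same order. Each had an adjusted p of 0.749, so none passed there either. The vehicle arrays of experiment A, which also entered the choice, remained in those tests.

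Within experiments the sign differed for Tnnt3, Ckm and Acta1, and for Tnni2 it was negative in each. Tnnt3 had r of -0.31 in A, 0.49 in B and -0.30 in C, and Ckm -0.28, 0.44 and -0.16. Acta1 had r of 0.37, -0.05 and 0.26, and Tnni2 -0.07, -0.33 and -0.41, over 14, 11 and 14 arrays. Without the 3 arrays at 50 mg/kg, r was -0.15 for Tnni2, -0.09 for Tnnt3, 0.07 for Ckm and 0.06 for Acta1. Without the 2 arrays farthest from the median of Tnnc2, the 5 mg/kg animal of B and animal 4 at 50 mg/kg of A, r was -0.24, -0.21, -0.04 and 0.22.

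Of the 6 pairs among Tnni2, Tnnt3, Ckm and Acta1, r ran between -0.12 and 0.36. The largest, Ckm with Acta1, had a permutation p of 0.0330 and an adjusted p of 0.198 over the 6 pairs, with rho = 0.33 (p = 0.0502), and r was 0.29 without the 2 arrays farthest from the median of Ckm (animal 2 of the vehicle group of A and animal 4 of the 1 mg/kg group of C). It was 0.56 within experiment A, 0.14 within B and 0.40 within C. With values centred on each dose group instead, it was 0.54 with an adjusted permutation p of 0.0197. Tnnt3 with Ckm had r = 0.29 (permutation p = 0.0671) and rho = 0.35 (permutation p = 0.0264), with adjusted p-values of 0.201 and 0.151. The subunits of 1 complex, Tnni2 and Tnnt3, had r of -0.11 with each other.

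**Figure D3:**
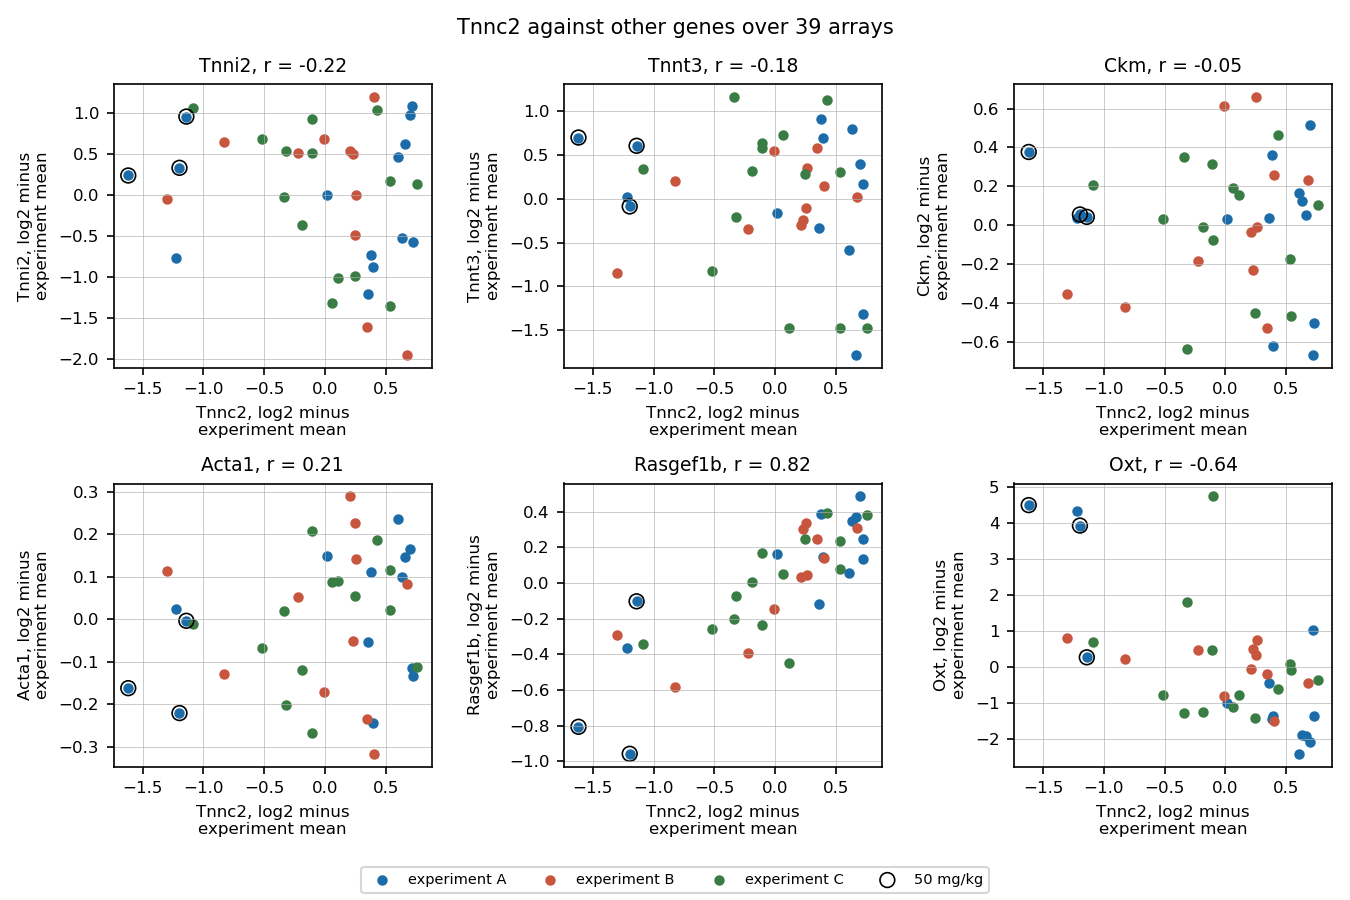
Each panel plots, for 39 arrays, Tnnc2 on the horizontal axis against another gene on the vertical axis, both as log2 intensity minus the experiment's mean, with experiments in colour and the 3 arrays at 50 mg/kg ringed. The 4 muscle-named genes have r between -0.22 and 0.21, while Rasgef1b (0.82) was chosen as the gene most like Tnnc2, and Oxt (-0.64) was named by rule.

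By the rule for naming genes, those most like Tnnc2 over the 39 arrays were then listed, as a description with no test, since arrays share experiment, vehicle animals and dissection. Rasgef1b, an exchange factor for small G proteins, was first with r = 0.82, and its other probe set had 0.64. The next were Cdk2ap1 (0.74), the lipid kinase Pip4k2c (0.72), the muscular lamin-interacting Mlip (0.71), Nudt4 (0.71) and Ttc9b (0.71). After them came the calcium pump Atp2a2 (0.71), Ptgfrn (0.70), Asap1 (0.69) and the synaptic adhesion gene Clstn1 (0.68). The 2 other probe sets of Atp2a2 had r of 0.11 and 0.16. The other probe set of Nudt4 had 0.45 and that of Asap1 0.50. Without the 50 mg/kg arrays the 10 genes kept r between 0.54 and 0.79 over 36 arrays, and with values centred on each dose group between 0.45 and 0.70 over 38 arrays.

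Rasgef1b read 9.43, 8.57 and 8.72 at 50 mg/kg, against 9.77, 10.02 and 9.92 in vehicle of experiment A. In the 4 other arrays named above for a low Tnnc2 it read 9.17 (1 mg/kg of A), 9.49 (5 mg/kg of B), 9.57 (10 mg/kg of C) and 9.20 (30 mg/kg of B). Within 1 mg/kg of A, 10 mg/kg of C and 30 mg/kg of B these were the lowest arrays of their group for Rasgef1b as well as for Tnnc2. Rasgef1b was chosen for its likeness to Tnnc2 over these same arrays. Its low values in them follow in part from that choice and are no separate support.

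Genes that ran opposite to Tnnc2 were Itih3 (r = -0.77), a hyaluronan-binding serum protein, Rpn2 (-0.72) of the glycosylation machinery, the RNA-binding Hnrnpa1 (-0.71, with -0.18 and -0.15 for its other probe sets), the lectin Lman2l (-0.70) and the RNA helicase Dhx15 (-0.70). The genes most like each other member were different ones: Dnmt1 (0.50) for Tnni2, Zzz3 (0.55) for Tnnt3, Tmem208 (0.64) for Ckm and Nid1 (0.58) for Acta1. The other 4 of the 5 genes nearest to each member ran between 0.43 and 0.48 for Tnni2, 0.53 and 0.54 for Tnnt3, 0.57 and 0.63 for Ckm, and 0.53 and 0.56 for Acta1. The other probe set of Nid1 had r = -0.36 with Acta1. None of the other members' 5 nearest genes is among the 10 nearest to Tnnc2.

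Lists of genes were set beside this. Of 41 fast muscle genes listed besides Tnnc2, 39 are on the array with a single symbol and 15 passed the filter, so most defining fast muscle transcripts are dim in this tissue. Of 32 cortical excitatory neuron genes on the array, 31 passed, and so did 8 of 14 hypothalamus genes. The filter keeps 11106 of all 15866 probe sets by design, so passing it does not single out frontal lobe. Among the 15 fast muscle genes, 10 had r above 0 with Tnnc2, with a median of 0.10 and a range of -0.27 to 0.57. Among the 31 cortical genes, 27 had r above 0, with a median of 0.33 and a range of -0.25 to 0.65. Over all 11105 other probe sets 50.0% had r above 0 and the median was 0.00, with the middle 95% between -0.48 and 0.51. The difference between the 2 lists was not tested.

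The brightest cortical genes all had positive r: Chn1, a signalling protein of projection neurons, 0.65, cholecystokinin (Cck) 0.59, neurogranin (Nrgn) 0.58 and the LIM protein Lmo4 0.51. Another probe set of Lmo4 had 0.34. The brightest fast muscle genes were mixed, with the myosin heavy chain Myh1 at 0.08, parvalbumin (Pvalb), also a marker of cortical interneurons, at 0.39, the glycogen phosphorylase Pygm at -0.27 and Acta1 at 0.21. Other probe sets of Myh1 ran between -0.01 and 0.01, and those of Pygm between -0.22 and -0.17. The 2 highest in the fast muscle list were the cytochrome oxidase subunit Cox6a2 at 0.57 and the titin-binding Tcap at 0.44, named after their values were seen. Both are dim, with mean levels of 6.92 and 6.95, just above the filter limit of 6.90. Of 5 slow and cardiac genes kept, 3 had r above 0 with a median of 0.04. They include Tnnc1, the troponin C of slow and cardiac muscle, at 0.07, Tnni1 at 0.04, Casq2 at -0.01, Nppa at 0.22 and Mybpc3 at -0.17. Other probe sets of Tnni1 and Casq2 had 0.14 and -0.14. Of 18 EF-hand calcium sensors 13 had r above 0, with a median of 0.16, and the brightest, Calm2, stood at 0.24.

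**Figure D4:**
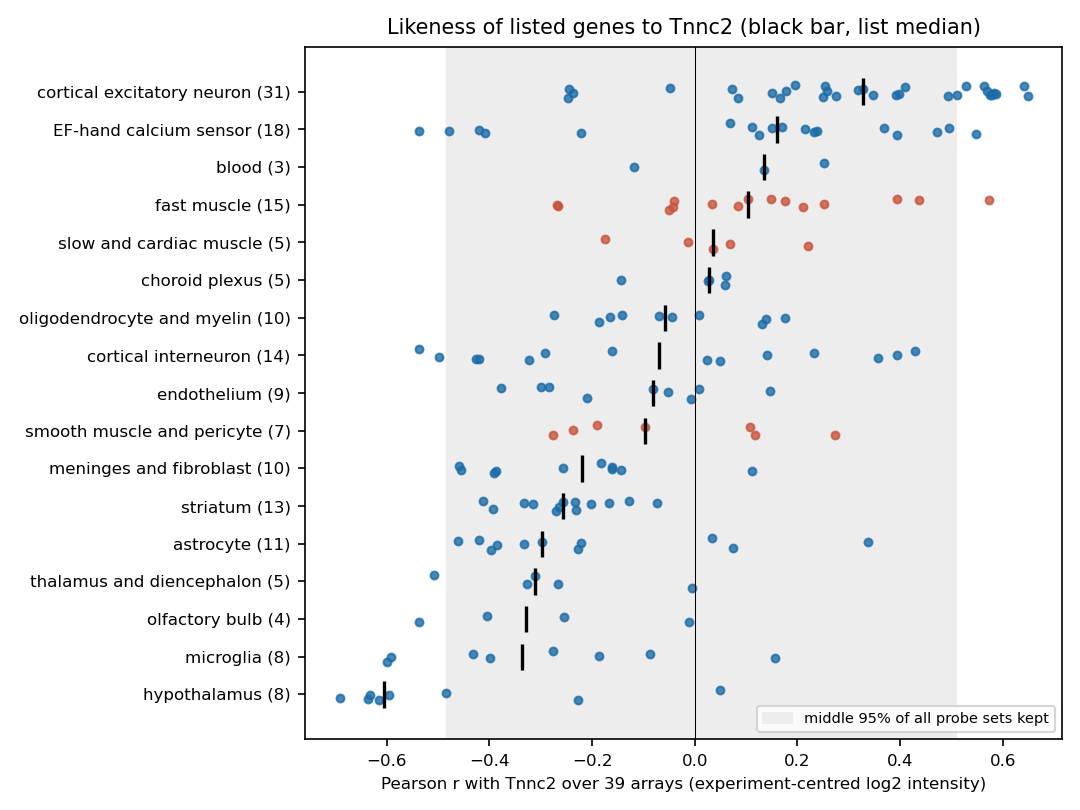
Pearson's r with Tnnc2 over 39 arrays for each gene of 17 lists (1 point per gene, number of genes in brackets), with a black bar at each list's median and grey over the middle 95% of all probe sets. Muscle lists are in red: fast muscle has its median at 0.10 and the cortical excitatory neuron list at 0.33, while the hypothalamus list lies lowest at -0.60.

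For other cell types and regions, the median r with Tnnc2 was -0.60 for hypothalamus (1 of 8 above 0, Nnat at -0.61), -0.34 for microglia (1 of 8, Ctss at -0.43) and -0.33 for olfactory bulb (0 of 4, Calb2 at -0.54). It was -0.31 for thalamus and diencephalon (0 of 5, Prkcd at -0.01), -0.30 for astrocytes (3 of 11, S100b at -0.22) and -0.26 for striatum (0 of 13, Penk at -0.39). It was -0.22 for meninges and fibroblasts (1 of 10, Ptgds at -0.46) and -0.10 for smooth muscle and pericytes (3 of 7, Tpm1 at 0.27). Lists near 0 or above were endothelium at -0.08 (2 of 9, Slc2a1 at -0.38), interneurons at -0.07 (7 of 14, Gad1 at -0.50) and myelin at -0.06 (4 of 10, Mbp at 0.13). The same holds for choroid plexus at 0.03 (4 of 5, Enpp2 at 0.06) and blood at 0.13 (2 of 3, Hbb at 0.25). The gene named in each case is the brightest of its list, by its brightest probe set. Another probe set of Mbp had r = -0.13 and of Gad1 -0.45, and those of Tpm1 ran between -0.02 and 0.37.

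The other members had medians near 0 with the cortical list, at -0.07 for Tnni2, 0.01 for Tnnt3, 0.07 for Ckm and 0.14 for Acta1, against 0.33 for Tnnc2. With the fast muscle list, their medians were -0.06, -0.06, -0.02 and 0.07, against 0.10 for Tnnc2. No test was made of these differences.

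Without the 50 mg/kg arrays, 26 of 31 cortical genes had r above 0 with a median of 0.29, against 11 of 15 and 0.15 for fast muscle genes. With values centred on each dose group the medians were 0.26 and 0.09. In the 10 vehicle arrays alone they were 0.48 for cortical and -0.18 for fast muscle genes. Within experiments the cortical median was 0.41 in A, 0.44 in B and 0.15 in C, and the fast muscle median was 0.13 in A, 0.08 in B and 0.19 in C. The cortical list thus had the higher median in experiments A and B and the lower one in experiment C. Experiment A includes the 50 mg/kg and vehicle arrays that chose Tnnc2. Its medians rest in part on the selecting values, so no order of the lists is read from experiment A.

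List averages were also set against Tnnc2. The mean over the 15 fast muscle genes, each centred on its experiment, had r = 0.44 with Tnnc2 (0.37 without Pvalb, chosen after seeing the data), the mean over the cortical list 0.56, the mean over the hypothalamus list -0.70 and the mean of Tnni2, Tnnt3, Ckm and Acta1 -0.25. With the 50 mg/kg arrays, which chose Tnnc2, left out, r was 0.53 for the fast muscle mean (0.42 without Pvalb) and 0.42 for the cortical mean. It was -0.57 for hypothalamus and -0.15 for the 4 members. The experiment means subtracted here still included those arrays. Their values therefore remain in these r, and no order of muscle and cortex is read from them. These are descriptions over 39 arrays that share experiments, vehicle animals and dissection. Among technical measures r was 0.29 for the log2 beta-actin 3′/5′ ratio, 0.21 for the Gapdh ratio and 0.24 for the median intensity. Without the 50 mg/kg arrays, and with experiment means taken anew, these were 0.33, 0.29 and 0.35. The part of these technical measures in the Tnnc2 values was not tested. Animal 1 of the 1 mg/kg group of experiment C stood apart in both ratios, with 4.72 for actin and 2.42 for Gapdh, against 1.23 to 2.15 and 1.01 to 1.34 in the other arrays, and its Tnnc2 (9.31) was the highest of its experiment. Without that array the cortical median was 0.33 and the fast muscle median 0.12.

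Array by array, a low Tnnc2 came with different neighbours. Oxytocin (Oxt), a peptide of the hypothalamus, was 12.05 in the 1 mg/kg rat of experiment A whose Tnnc2 was 6.91, and 11.64 and 12.21 in animals 3 and 4 of the 50 mg/kg group. It was 7.97 in animal 2 at 50 mg/kg, with Tnnc2 at 6.99. It was 7.12 in the 5 mg/kg rat of B, 7.71 in rat 2 of the 10 mg/kg group of C and 6.56 in rat 3 of the 30 mg/kg group of B, all with Tnnc2 under 8. In vehicle animal 3 of experiment C, Oxt was 11.76 with Tnnc2 at 8.45. Over 39 arrays r between them was -0.64, and -0.47 without the 50 mg/kg arrays. High Oxt and low Tnnc2 therefore occurred together in 3 arrays, low Tnnc2 without such an Oxt level in 4, and Oxt above 11 without low Tnnc2 in 1.

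The mean of the cortical list, as log2 difference from the experiment's mean, was -0.05, -0.37 and -0.32 in animals 2, 3 and 4 at 50 mg/kg. It was -0.06, -0.18, 0.03 and 0.03 in the low arrays of 1 mg/kg of A, 5 mg/kg of B, 10 mg/kg of C and 30 mg/kg of B. Vehicle animal 2 of experiment B (-0.38) and vehicle animal 3 of experiment C (-0.35) were as low for cortical genes, with Tnnc2 at 8.42 and 8.45. Those were the lowest Tnnc2 values among the vehicle arrays, at -0.23 and -0.10 from the means of their experiments. So Tnnc2 and the cortical mean were both well under the experiment's mean in 2 arrays at 50 mg/kg and in the 5 mg/kg array of B, and the other low Tnnc2 values came with cortical means near 0.

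**Figure D5:**
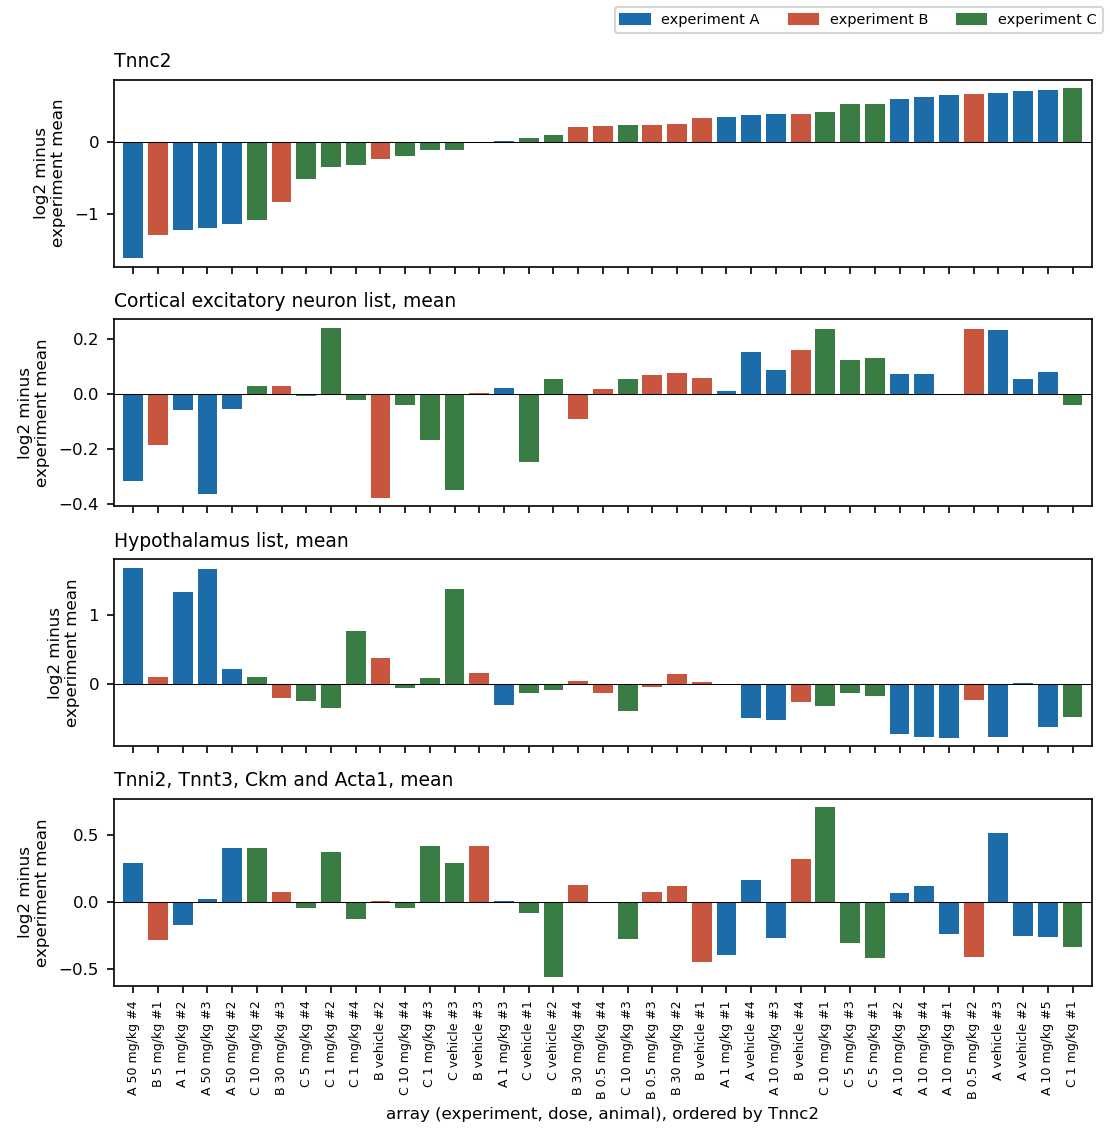
The 39 arrays ordered by Tnnc2, with bars for Tnnc2, the cortical excitatory neuron list, the hypothalamus list and the mean of the 4 other muscle genes, all as log2 difference from the experiment's mean. The arrays at the low end of Tnnc2 include cortical means of -0.37 and of 0.03, and the means of the 4 muscle genes show no order along the axis.

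By dose, values at 50 mg/kg are again a description. Of the 31 cortical genes, 27 were lower at this dose than in vehicle, with a median difference of -0.27, against 6 of 15 fast muscle genes with a median of 0.03 and 48.5% of all probe sets with a median of 0.01. All 8 hypothalamus genes kept were higher, with a median of 0.59. In limma 0 fast muscle genes passed at any of the 5 other doses (0% of all probe sets), and 2, 0, 1, 0 and 3 of 15 had an unadjusted p under 0.05 at 0.5, 1, 5, 10 and 30 mg/kg. Among all probe sets that share was 7.62%, 2.54%, 2.48%, 2.68% and 9.25%. At 0.5 mg/kg, where Tnnc2 differed by 0.46 ± 0.36, the lists leaned the same way: 10 of 15 fast muscle genes and 25 of 31 cortical genes were higher than in vehicle, with medians of 0.19 and 0.21, against a median of 0.00 over all probe sets. None of these genes passed at that dose. At 1 mg/kg, where 3 of the 7 arrays are of experiment A, 8 of 15 fast muscle genes and 15 of 31 cortical genes were lower than in vehicle, with medians of -0.01 and 0.00, against 52.0% of all probe sets.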

How the data were processed

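Frontal lobe RNA of single rats, 15 ug after biotin labelling per the labels' protocols, was hybridised to an Affymetrix rat array. The deposited values are linear probe set intensities as made by the authors, and the software that summarized probes is not stated in the labels or headers used. Genes come from the platform annotation: 12783 probe sets have 1 symbol, 312 several and 2771 none, besides 57 controls. Arrays whose median log2 correlation with the others was under 0.5 were left out (7 of 46). Array medians before scaling ran between 112 and 286. Precision is limited by how few arrays a group holds. Arrays were each scaled to a common median, floored at the 5th percentile (intensity 11.0), taken to log2 and quantile normalised. Probe sets with a mean under the 30th percentile were removed, leaving 11106 of 15866.

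Dose and experiment were fitted additively in limma 3.58.1 (R 4.3.3) over all 39 arrays, with Benjamini-Hochberg adjustment over the whole table, and the fit was tested on simulated data. Correlations used values minus the experiment's mean, with 100000 permutations within experiment (python 3.11.15, scipy 1.17.1, numpy 2.4.6). Figures were drawn with matplotlib 3.10.9. Alternatives were the scaling, floor, filter and prior variance, the replicate block, leaving out experiments, the 50 mg/kg arrays, 3 arrays labelled a first repeat and each array in turn, other centring and Spearman's rho.

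Members and lists were chosen with earlier results of these data known. Genes named are all members, the 10 most and 5 least correlated with Tnnc2, the 5 nearest to each other member, the 4 brightest of the fast muscle, slow and cardiac, and cortical lists, the brightest of each other list, Oxt and Tnnc1, with 1 probe set per gene, the brightest. Exceptions are named as such. Animal numbers recur between groups: same-numbered arrays had a mean correlation of deviations of -0.0064 (43 pairs, 9 over 0.1), different-numbered ones 0.0023 (135 pairs), so numbers were not taken as pairs. A second description line of the vehicle arrays of experiment B names 1 mg/kg, against their titles, and the titles were followed.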

Additional observations from a re-analysis of the deposited data

Results flagged for a closer look

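Tnnt3 in animal 1 of the 10 mg/kg group of experiment C read 6.06, while the other 3 arrays of that group read 5.22, 5.25 and 5.28. The gap to the nearest array was 0.928 of the group's range, above the 95% critical value of 0.829 for 4 arrays. It was 1 flag in 20 sets of values tested, and chance gives about 1 in 20.

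Tnni2 after 1 mg/kg moved in opposite directions in 2 experiments: its mean change against vehicle was -1.10 in experiment A (n = 3) and 0.76 in experiment C (n = 4). The difference, A minus C, was -1.86, in limma over all 15866 probe sets (unadjusted p = 0.0651). Its adjusted p in limma was 0.761, so it did not pass.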

How the results depend on the processing

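No dose difference of Tnnc2, Ckm or Acta1 at 0.5 to 30 mg/kg passed under any alternative run, and Tnni2 and Tnnt3 were fitted only without the filter. Of 1313 alternative values of 25 dose differences and correlations, 1311 stayed on the same side of the threshold and 40 had the opposite sign; the 2 exceptions by Pearson's r are Ckm with Acta1, at 0.54 (adjusted p = 0.0197) centred on dose groups and 0.44 (adjusted p = 0.0469) without vehicle animal 3 of B, by permutation. By Spearman's rho, Ckm with Acta1 passed centred on dose groups (0.53, adjusted permutation p = 0.0239). Without experiment B both Ckm with Acta1 (0.49) and Tnnt3 with Ckm (0.47) passed by rho (adjusted permutation p = 0.0428 for both). With the replicate block, the count of probe sets called at 50 mg/kg was 0, against 2. That count was 1 with median scaling alone, 0 without experiment B, 66 without C, 0 with no filter, 1 with the filter at the 50th percentile and 94 within A. Leaving out 1 array gave 0 to 5: 0 without vehicle animal 2 or 3 or 50 mg/kg animal 3 of A, 5 without vehicle animal 4 and 4 without 50 mg/kg animal 2. At 0.5 mg/kg 2 were called with no filter and 0 to 5 without 1 array (1 without animal 2 and 5 without animal 3 of that group). At 30 mg/kg 1 was called without A, 6 without C, 10 with no filter and 0 to 3 without 1 array (3 without animal 2 of that group, 2 and 1 without vehicle animals 1 and 2 of B, 1 without 10 mg/kg animal 1 of A). The median r with Tnnc2 was -0.18 in vehicle and 0.19 within C for fast muscle genes, and 0.48 in vehicle, 0.44 within B and 0.15 within C for cortical genes. For hypothalamus genes it was -0.19 without A, -0.31 centred on dose groups, -0.37 without the 50 mg/kg arrays, -0.40 in vehicle, -0.81 within A, -0.15 within B and -0.18 within C. Leaving out 1 array kept the medians at 0.09 to 0.14, 0.29 to 0.37 and -0.63 to -0.51. Dim signal limits Tnni2 and Tnnt3, and the causes of these shifts were not tested.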

Other observations

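Some genes not named by the rule, picked after their values were seen, also varied with Tnnc2 over the 39 arrays. The syntaxin Stx1a had r = 0.64 and the vesicular glutamate transporter Slc17a7 0.57, while Hap1, a huntingtin-binding protein, had -0.69, and the hypothalamic peptide genes Pmch and Avp had -0.63 and -0.59. The other probe sets of Stx1a and Slc17a7 had 0.29 and 0.42. These are extremes of their lists. In the cortical list 27 of 31 genes had r above 0, and Ccn3 had -0.25 and Neurod1 -0.24. In the hypothalamus list 1 of 8 had r above 0, Sst at 0.05. Without the 50 mg/kg arrays, which chose Tnnc2, the values were 0.41 for Stx1a, 0.40 for Slc17a7, -0.63 for Hap1, -0.34 for Pmch and -0.36 for Avp over 36 arrays.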
